A study of Mus musculus with 4 samples.

Results

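The Hox cluster genes of the mouse were covered by 46 probes for 39 genes, out of 56605 probes on the array that are not controls. A probe was taken as a Hox probe where the RefSeq accession that the array files give for it belongs to a gene named Hoxa, Hoxb, Hoxc or Hoxd with a number, so no measured value entered the choice. The study asked which genes are involved in the peritoneal dissemination of ovarian cancer, and compared a cell line selected in mice with its parent. ID8G cells are ID8 cells, a line of mouse ovarian surface epithelium that transformed spontaneously in culture, transduced with a retrovirus for GFP and sorted for it. GO2 cells are their descendants after 2 rounds of growth, in which cells were injected i.p. into female C57BL/6 J mice and the CD45-negative, GFP-positive cells of omental tumors were sorted and cultured again. Both lines carry GFP, were grown in the same medium with insulin, transferrin and selenite, and were read as total RNA on 2 arrays each. GO2 is the single selected line, and the labels do not say whether the arrays of a line came from separate cultures, so the p values measure the spread between these arrays, which may be technical.

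Hox genes encode homeodomain transcription factors that give body regions their identity along the head-to-tail axis. They lie in HoxA, HoxB, HoxC and HoxD clusters on different chromosomes, and their order in a cluster, written as the paralog number, follows the order in which they are used from anterior to posterior. In the female reproductive tract, posterior Hoxa genes pattern the oviduct, uterus and cervix, and adult tissues and the tumors that arise from them keep a part of the Hox code of their origin.

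The promoter windows of 5 Hox genes are shown because the comparison turns on them. Hoxa3 was the Hox gene called lower in GO2 cells, Hoxa10 (with its 2 annotated starts) was lower by just under the minimum fold, Hoxc4 and Hoxd8 were higher by smaller amounts, and Hoxb4 stands for the HoxB genes that were not well above background. Each window holds the 250 bases before an annotated start, from the RefSeq promoter table for GRCm38.p6, written from 5′ to 3′ on the strand of the gene. Capitals mark CpG pairs, the sites of DNA methylation in promoters.
Hoxa3, chr6:52213068-52213317, minus strand: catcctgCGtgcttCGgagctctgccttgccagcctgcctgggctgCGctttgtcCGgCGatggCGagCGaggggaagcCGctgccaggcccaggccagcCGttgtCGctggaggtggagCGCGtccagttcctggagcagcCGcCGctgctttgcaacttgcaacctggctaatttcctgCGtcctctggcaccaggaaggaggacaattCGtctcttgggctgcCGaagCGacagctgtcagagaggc
Hoxa10, chr6:52234940-52235189, minus strand: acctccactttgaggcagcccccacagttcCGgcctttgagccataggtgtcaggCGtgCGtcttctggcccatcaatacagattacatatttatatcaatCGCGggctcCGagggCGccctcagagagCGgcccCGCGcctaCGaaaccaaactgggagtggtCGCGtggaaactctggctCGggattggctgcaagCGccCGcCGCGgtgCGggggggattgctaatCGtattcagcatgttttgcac
Hoxa10, chr6:52240855-52241104, minus strand: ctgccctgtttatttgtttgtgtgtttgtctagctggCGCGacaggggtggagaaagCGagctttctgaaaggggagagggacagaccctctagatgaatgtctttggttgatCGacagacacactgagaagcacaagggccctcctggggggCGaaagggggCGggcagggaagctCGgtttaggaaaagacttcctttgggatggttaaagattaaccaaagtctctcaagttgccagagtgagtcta
Hoxb4, chr11:96318017-96318266, plus strand: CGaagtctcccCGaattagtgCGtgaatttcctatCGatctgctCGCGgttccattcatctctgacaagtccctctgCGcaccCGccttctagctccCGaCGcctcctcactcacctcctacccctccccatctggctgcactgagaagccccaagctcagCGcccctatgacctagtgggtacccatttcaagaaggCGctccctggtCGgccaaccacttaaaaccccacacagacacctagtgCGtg
Hoxc4, chr15:103034145-103034394, plus strand: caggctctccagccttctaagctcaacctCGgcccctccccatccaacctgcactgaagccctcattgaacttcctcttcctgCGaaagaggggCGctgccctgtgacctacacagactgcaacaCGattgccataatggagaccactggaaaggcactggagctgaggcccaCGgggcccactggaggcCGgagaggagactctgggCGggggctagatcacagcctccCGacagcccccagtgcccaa
Hoxd8, chr2:74704365-74704614, plus strand: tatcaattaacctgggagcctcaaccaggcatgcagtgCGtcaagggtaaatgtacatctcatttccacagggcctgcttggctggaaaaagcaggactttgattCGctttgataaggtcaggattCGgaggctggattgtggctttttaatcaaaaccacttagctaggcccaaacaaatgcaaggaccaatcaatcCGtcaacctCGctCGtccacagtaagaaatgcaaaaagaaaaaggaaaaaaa

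Such windows were given for 22 of the 39 Hox genes, 24 windows in all. The Hoxa3 window held 18 CpG pairs, the Hoxa10 windows 20 and 7, the Hoxb4 window 14, the Hoxc4 window 8 and the Hoxd8 window 6. Over all 32851 promoter windows of the table the median was 6. It was 7.5 for the 10 windows of Hox genes that were tested and 13.5 for the 10 windows of Hox genes that were well above background on no array, with ranges that ran up to 20 and 35. In the RefSeq annotation, the start of the Hoxa3 transcript lies between those of Hoxa6 and Hoxa7, so its window is far from the coding part of the gene. On either strand, the letters TGACAG, the core that Meis and Pknox proteins bind, were found in the windows of 2 Hox genes, Hoxa2 and Hoxa3, and in 15.9% of all windows. The letters TAATTA, a homeodomain core, were in 8.33% of the Hox windows and in 4.84% of all, and the letters AGGTCA, a core element for nuclear receptors, were in 25.0% and 14.0%. None of these motifs contains another, and a match is a description of the sequence alone.

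A level is the log2 intensity of a probe after subtraction of its array's 75th percentile, so a level of 0 is the brightness of the 75th percentile probe. Levels were compared between the cell lines for each probe by itself and never between probes, apart from the summed levels of cell type markers. Of the 46 Hox probes, 17 gave signal well above background on each array of ID8G cells, of GO2 cells or of both, and were tested, which is 37.0%, against 50.1% of all probes. They belong to 14 genes. Of these probes, 16 were well above background on all 4 arrays. Another 5 genes were well above background on 1 array only, and 20 genes on none.

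Which Hox genes were measurable differed between the clusters. HoxA had 5 of 11 genes tested, HoxC 4 of 9 and HoxD 4 of 9, whereas HoxB had 1 of 10, Hoxb3. The other 9 HoxB genes, Hoxb1, Hoxb2, Hoxb4, Hoxb5, Hoxb6, Hoxb7, Hoxb8, Hoxb9 and Hoxb13, were not well above background on any array. The same held for Hoxa6, Hoxa11 and Hoxa13, for Hoxc5, Hoxc8, Hoxc10, Hoxc11 and Hoxc12, and for Hoxd1, Hoxd11 and Hoxd12. Along the paralog numbers, 4 of 8 anterior genes (numbers 1 to 3), 5 of 15 central genes (4 to 8) and 5 of 16 posterior genes (9 to 13) were tested. For a probe that is not well above background the array gives an upper bound, not a level of 0.

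**Figure D1:**
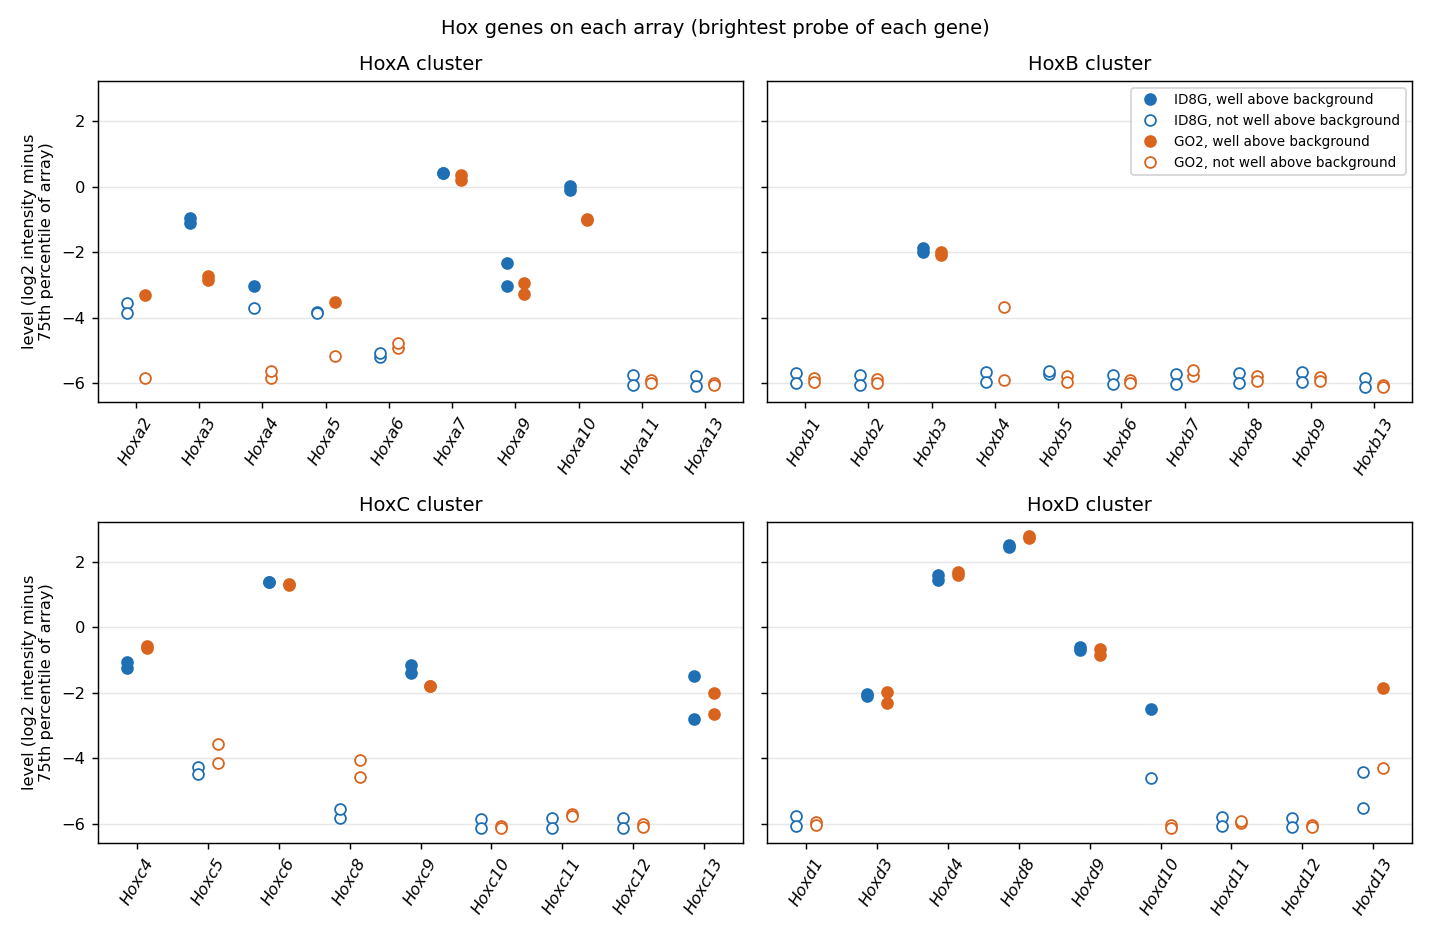
Level of Hox genes on each array, by cluster and paralog number. The vertical axis is the level (log2 intensity relative to the array's 75th percentile), each circle is 1 array of the brightest probe of the gene, and open circles were not well above background. HoxB shows filled circles for Hoxb3 alone, and the GO2 circles of Hoxa3 lie below its ID8G circles.

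Hoxa3 was lower in GO2 cells, and no other Hox probe met both the adjusted p and the minimum fold. Against a background of 4.50% of the tested probes higher and 3.34% lower in GO2 cells by limma (adjusted p below 0.05 and at least 2-fold), 0 Hox probes were called higher and 1 was called lower, a probe of Hoxa3. At an unadjusted p below 0.05, limma gave 4 Hox probes higher (22.5% of all tested probes) and 4 lower (25.7%), and the t-test of the methods gave 2 and 2 (11.9% and 12.7%). With no minimum fold, the adjusted p of 3 Hox probes was below 0.05 on the higher side (17.0%) and of 4 on the lower side (18.9%). The median difference, GO2 minus ID8G, was -0.10 on the log2 scale over the Hox probes and -0.02 over all tested probes. The median absolute difference was 0.263 for Hox probes and 0.203 for all. It was below 0.5 for 11 Hox probes (64.7%, against 80.2% of all tested probes). For 11 of the 17 probes the 95% confidence interval of the difference lay within 1 log2 unit of 0, which held for 86.2% of all tested probes. Both GO2 arrays lay below both ID8G arrays for 6 Hox probes, above them for 4, and overlapped them for 7, against 39.6% of all tested probes below and 33.9% above.

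**Figure D2:**
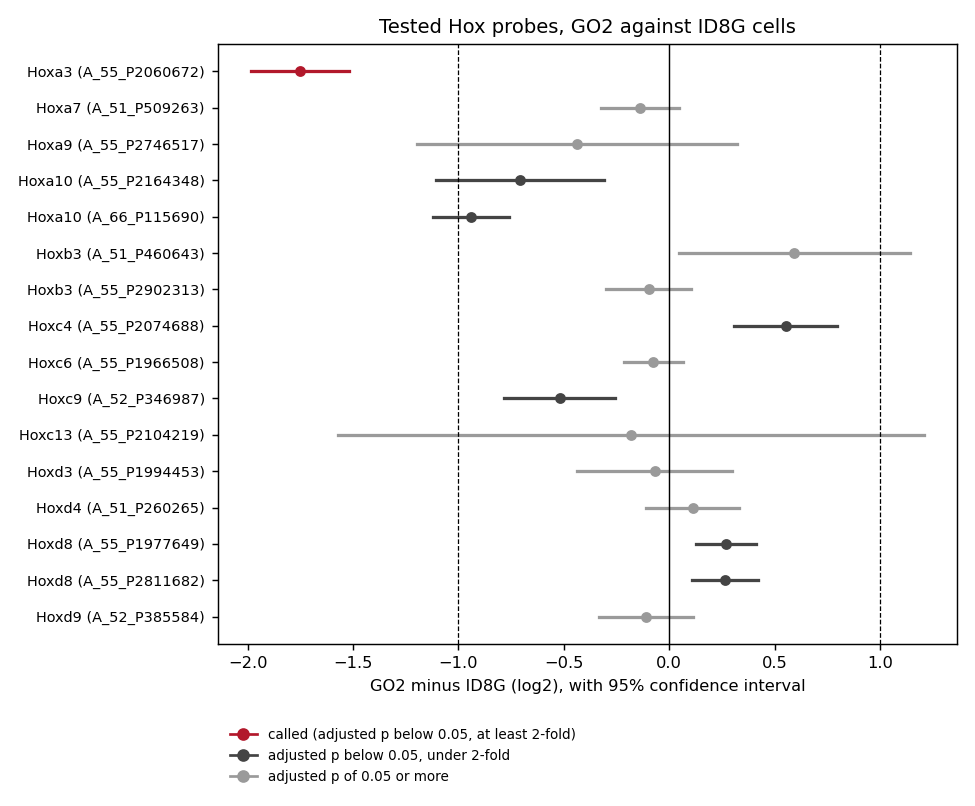
Difference between GO2 and ID8G cells for 16 tested Hox probes, in the order of cluster and paralog number. The horizontal axis is GO2 minus ID8G on the log2 scale, points are estimates, lines are 95% confidence intervals from limma, and dashed lines mark 2-fold. The interval of 1 Hoxa3 probe, from -1.98 to -1.52, is the one that lies wholly beyond the 2-fold line.

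In the HoxA cluster the difference of all 6 tested probes was below 0, with a median of -0.57. The sign of these probes held under each scaling of the arrays and without each array, while the median was -0.26 with normexp background correction and -0.36 without ID8G replicate 1. Hoxa3, a paralog group 3 gene that acts in the pharyngeal arches, thymus and parathyroid, read -1.11 and -0.95 in ID8G cells and -2.84 and -2.73 in GO2 cells by probe A_55_P2060672. The GO2 arrays were well apart from the ID8G arrays. This is a difference of -1.75 (SE 0.08, limma adjusted p = 0.000766), or 3.37-fold lower. The other Hoxa3 probe, A_51_P335169, which the array files assign to the same transcript, read -5.75 and -6.04 in ID8G cells and -5.86 and -5.99 in GO2 cells. It was not well above background on any array and gives no check, so the change of Hoxa3 rests on 1 probe. In bulk RNA, fewer cells with Hoxa3 transcripts and less of the transcript per cell cannot be told apart. The call was lost with the t-test of the methods, at an adjusted p of 0.128.

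Hoxa10, which patterns the uterus and oviduct, was lower by both of its probes without reaching the minimum fold. By probe A_66_P115690 it read -0.11 and 0.01 in ID8G cells and -1.01 and -0.98 in GO2 cells, a difference of -0.94 (SE 0.07, limma adjusted p = 0.00189), or 1.92-fold lower. By probe A_55_P2164348 it read -2.48 and -2.83, then -3.45 and -3.27, a difference of -0.71 (SE 0.14, adjusted p = 0.0273), which became -0.28 with an adjusted p of 0.0563 (limma) after normexp background correction. The GO2 arrays lay below the ID8G arrays on both probes. The brighter probe passed the minimum fold with spike-in scaling, at -1.15, and without ID8G replicate 1, at -1.002.

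Hoxa9 and Hoxa7 did not pass the adjusted threshold. Hoxa9, which acts in the oviduct and in blood progenitors, read -2.32 and -3.03 in ID8G cells and -3.28 and -2.94 in GO2 cells, a difference of -0.44 with an interval from -1.20 to 0.32. The arrays of the lines overlapped, and without ID8G replicate 1 the difference was -0.09 and without ID8G replicate 2 it was -0.79. The other Hoxa9 probe read -4.43 and -4.50, then -6.01 and -6.10, and was well above background on no array. Hoxa7 read 0.42 and 0.41, then 0.34 and 0.21, with an interval from -0.32 to 0.05. The interval of Hoxa7 leaves out a change of 2-fold in either direction.

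Of the HoxA genes above background on 1 array, Hoxa4 read -3.72 and -3.04 in ID8G cells and -5.83 and -5.61 in GO2 cells, and was well above background on ID8G replicate 2 only. Hoxa2 read -3.54 and -3.86, then -5.85 and -3.29. Hoxa5 read -3.84 and -3.85, then -3.51 and -5.18. Hoxa2 was well above background on GO2 replicate 2 and Hoxa5 on GO2 replicate 1, and in both genes the other GO2 array was the lowest of the 4. Hoxa4 did not meet the filter on signal, and its fit without that filter gave -2.35 with a limma adjusted p of 0.0382.

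HoxB was represented by Hoxb3 alone, a gene of the hindbrain and throat, whose 2 tested probes differed in direction. Probe A_55_P2902313 read -2.005 and -1.872 in ID8G cells and -2.077 and -1.996 in GO2 cells, a difference of -0.10 with an interval from -0.30 to 0.10. Probe A_51_P460643 read -4.07 and -3.61, then -3.09 and -3.41, a difference of 0.59 (SE 0.20, limma adjusted p = 0.0866), and was well above background on 1 of the 2 ID8G arrays. The array also holds a noncoding transcript of the cluster, Hoxb5os, antisense to Hoxb5. It read 1.78 and 1.86 in ID8G cells and 1.88 and 1.87 in GO2 cells by probe A_66_P128000, well above background on all arrays, while its other probe, like the probes of Hoxb5 and Hoxb6, was so on none. Hoxb4 read -5.66 and -5.96 in ID8G cells and -3.66 and -5.92 in GO2 cells, and the GO2 array that stood out was not well above background either.

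In the HoxC cluster, Hoxc4 was higher and Hoxc9 lower in GO2 cells, each by less than 2-fold. Hoxc4, which acts in the vertebrae of the neck and thorax, read -1.25 and -1.05 in ID8G cells and -0.56 and -0.63 in GO2 cells, a difference of 0.55 (SE 0.09, limma adjusted p = 0.0155), or 1.47-fold higher. Hoxc9, a posterior gene that acts in the thoracic spine and in motor neurons, read -1.15 and -1.39, then -1.78 and -1.79, a difference of -0.52 (SE 0.10, adjusted p = 0.0214), or 1.43-fold lower. The arrays of the lines were apart for both genes.

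Hoxc6 read 1.39 and 1.38 in ID8G cells and 1.29 and 1.32 in GO2 cells, with an interval of the difference from -0.22 to 0.06 that leaves out a 2-fold change. Hoxc13, which acts in hair and nails, read -2.80 and -1.50, then -2.65 and -2.02. Its ID8G arrays differed by 1.30, the largest gap between replicates of any tested Hox probe, and its interval, from -1.57 to 1.21, leaves both directions possible. Its sign turned when an array was left out, from -0.83 without ID8G replicate 1 to 0.47 without ID8G replicate 2. Among the HoxC genes that were not tested, Hoxc8 read -5.82 and -5.54 in ID8G cells and -4.56 and -4.06 in GO2 cells without being well above background.

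In the HoxD cluster, Hoxd8 was higher in GO2 cells by a small amount on both probes. Probe A_55_P2811682 read 2.53 and 2.46 in ID8G cells and 2.73 and 2.78 in GO2 cells, a difference of 0.26 (SE 0.06, limma adjusted p = 0.0318), or 1.20-fold. Probe A_55_P1977649 read 0.28 and 0.31, then 0.55 and 0.58, a difference of 0.27 (SE 0.05, adjusted p = 0.0241). The probes gave like sizes, and the arrays of the lines were apart on each. With spike-in scaling, which lowers the median of all tested probes to -0.23, the 2 differences were 0.06 and 0.06.

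The other HoxD genes did not pass the adjusted threshold. Hoxd4, which acts in the hindbrain and the neck vertebrae, read 1.61 and 1.46 in ID8G cells and 1.69 and 1.60 in GO2 cells, a difference of 0.11 that became -0.10 with spike-in scaling. Hoxd3, which shapes the atlas, read -2.05 and -2.09, then -1.96 and -2.32, a difference of -0.07, which was 0.11 without GO2 replicate 2. Hoxd9, which acts in the limb, read -0.60 and -0.69, then -0.84 and -0.68, a difference of -0.11. The intervals of these 3 genes lay between -0.44 and 0.33, so that changes of 2-fold are left out.

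Hoxd10 and Hoxd13, posterior genes of the limb and urogenital tract, were well above background on 1 array each. Hoxd10 read -4.60 and -2.50 in ID8G cells and -6.04 and -6.11 in GO2 cells, with ID8G replicate 2 above background. Hoxd13 read -4.41 and -5.52, then -4.29 and -1.86, with GO2 replicate 2 above background. In each gene 1 array stood out from its own replicate, by more than 2 log2 units, and neither was tested.

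Grouped by paralog number, all 6 tested posterior probes had a difference below 0, with a median of -0.48, while the anterior probes had a median of -0.10 and the central probes one of 0.19. The sign of the posterior probes held under each scaling, with a median of -0.26 after normexp background correction. Without ID8G replicate 2 and without GO2 replicate 1, 5 of the 6 were below 0, since Hoxc13 turned. The Hoxa9 and Hoxa10 probes of this group were also counted in the HoxA cluster. The central median became -0.02 and that of HoxD, 0.11, became -0.10 with spike-in scaling. The HoxC median was -0.13. The 4 posterior genes beside Hoxa10 are Hoxa9, Hoxc9, Hoxc13 and Hoxd9, and Hoxc9 is the one of them with an adjusted p below 0.05. These groups hold few probes and are given as descriptions, with no test of the groups.

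**Figure D3:**
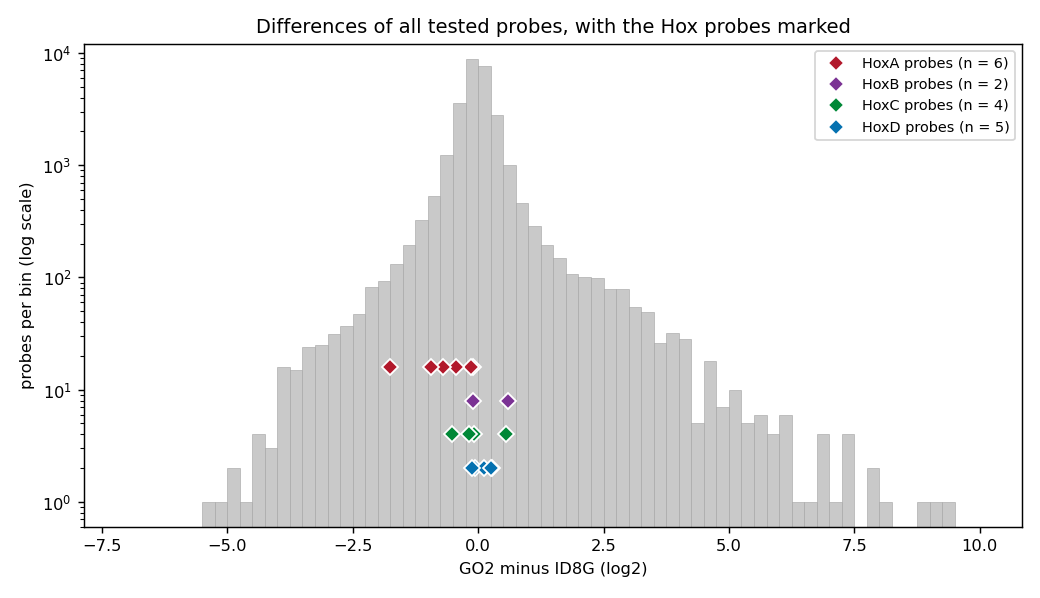
Differences of all 28368 tested probes as grey bars, with the Hox probes as diamonds. The horizontal axis is GO2 minus ID8G on the log2 scale and the vertical axis is the number of probes per bin on a log scale, on which the height of the diamonds has no meaning. The diamonds lie within 1 log2 unit of 0, except the Hoxa3 probe at -1.75. Of the Hox probes 64.7% lie within 0.5 of 0, against 80.2% of all tested probes.

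The HoxA genes were also set beside the genes that lie around them. For each cluster, the 10 nearest tested genes on each side were taken in the order of the RefSeq annotation, a comparison chosen after the values were seen. On chromosome 6, the 20 neighbors of HoxA had a median difference of -0.12, with 13 below 0, 2 called higher and 0 called lower, whereas the 5 tested HoxA genes had a median of -0.44 by their brightest probes. That median is the value of Hoxa9, and the median was -0.18 without ID8G replicate 1, -0.27 without GO2 replicate 1, -0.79 without ID8G replicate 2 and -0.24 with normexp, where the neighbors gave -0.12, -0.13, -0.14 and -0.10. On chromosome 11, the medians were 0.04 for the neighbors and -0.10 for Hoxb3. On chromosome 15, they were -0.02 for the neighbors and -0.13 for the HoxC genes, and on chromosome 2 they were 0.08 for the neighbors and 0.02 for the HoxD genes. The HoxC median turned to 0.19 without ID8G replicate 2, and that of HoxD to -0.19 with spike-in scaling. The neighbors of HoxA span from -0.76 for Jazf1 to 2.16 for Tril. They include Halr1, at -0.39, and Hottip, at -0.50, which are read below as noncoding transcripts of the HoxA cluster.

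**Figure D4:**
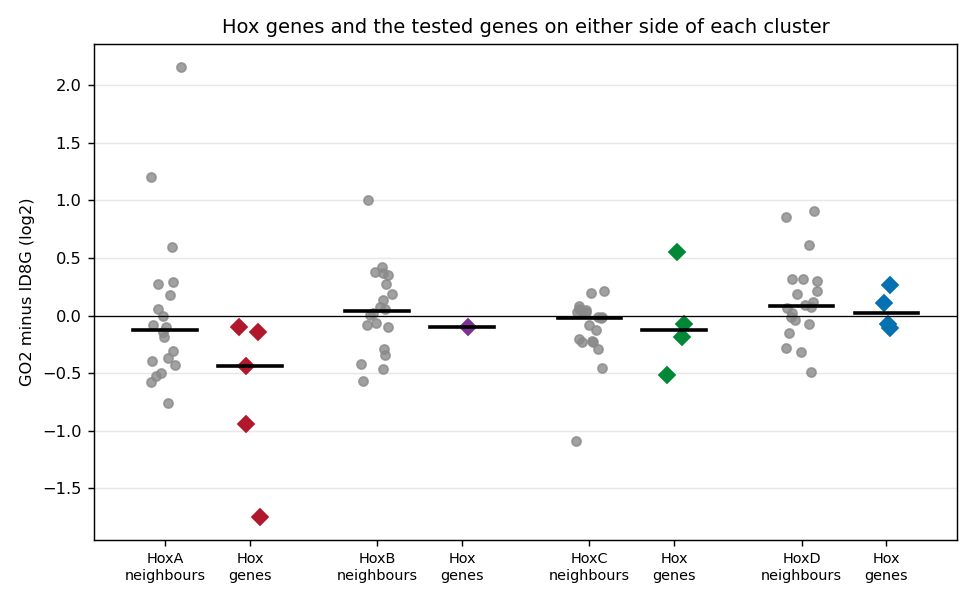
Hox genes and the 20 tested genes nearest to each cluster. The vertical axis is GO2 minus ID8G on the log2 scale, each grey point is a neighboring gene, each diamond a Hox gene by its brightest tested probe, and bars are medians. The HoxA genes have a median of -0.44 and their neighbors one of -0.12.

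The noncoding transcripts of the clusters were read beside the genes. Of 7 with a probe, 6 were tested, and 0 were called by limma at an adjusted p below 0.05 and at least 2-fold, which 7.84% of all tested probes met in either direction. At an unadjusted p below 0.05, limma gave 0 higher and 2 lower, against 22.5% and 25.7% of all tested probes. The t-test of the methods gave 1, against 11.9% higher and 12.7% lower of all. Hottip, transcribed from the posterior end of HoxA, read -3.43 and -3.27 in ID8G cells and -4.01 and -3.70 in GO2 cells, a difference of -0.50 (limma adjusted p = 0.0492). On GO2 replicate 1 it lay below the dimmest level counted as well above background, -3.77. Hottip thus entered the test through ID8G cells alone, where it was brighter, so that this p says little. Halr1, at the other end of the cluster, read -1.28 and -1.37, then -1.76 and -1.68, a difference of -0.39 (adjusted p = 0.0157). Both of these HoxA transcripts were lower on both GO2 arrays, by less than the minimum fold. Of all tested probes, 39.6% were lower on both GO2 arrays. Mira, a further tested transcript inside HoxA that was not on this list, differed by 0.11 (limma adjusted p = 0.380). Haglr and Hoxd3os1 of HoxD, at 0.03 and 0.15, Hoxaas3 of HoxA, at -0.10, and Hoxb5os, at 0.06, had an adjusted p of at least 0.216. Whether these probes read transcripts of the opposite strand was not tested. Genes known to flank the clusters were also read from a list chosen by name, apart from the neighbors taken by order, among which Gsdme and Tril beside HoxA and Copz2 beside HoxB were called higher and Amhr2 beside HoxC lower. Of 24 listed genes with a probe, 19 were tested and 0 were called by limma, with a median of -0.01. At an unadjusted p below 0.05, limma gave 3 of their 34 probes higher and 9 lower, against 22.5% and 25.7% of all tested probes. The t-test of the methods gave 6, against 11.9% higher and 12.7% lower of all.

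Among the partners of Hox proteins, Pknox2, Pbx3 and Meis2 were called higher in GO2 cells. Hox proteins bind DNA together with TALE homeodomain proteins of the Pbx, Meis and Pknox families, which raise their affinity and choice of site. Of 9 TALE genes 8 were tested, 3 were called higher and 0 lower, and the median difference was 0.38. Of their 15 tested probes, 4 were called higher, against 4.50% of all tested probes, and 1 of these 4 was tested because of its signal in GO2 cells alone.

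Pknox2 read -5.81 and -6.10 in ID8G cells and 0.26 and 0.18 in GO2 cells. It was not well above background on either ID8G array and was so on both GO2 arrays, so it was at least 14.9-fold higher (limma adjusted p = 0.000189). It entered the test through GO2 cells alone, where it was bright, so that this p says little beyond the bound. Such a bound takes, as the ID8G level, the dimmest signal that an array still counts as well above background. Pbx3 read 1.42 and 1.60 in ID8G cells and 3.62 and 3.58 in GO2 cells by its brighter probe, a difference of 2.09 (SE 0.08, adjusted p = 0.000501), and its other probe differed by 2.06. The arrays of the lines were far apart for both genes.

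Meis2 read 0.87 and 0.92, then 1.86 and 1.87 by its brighter probe, a difference of 0.97, and its other probe differed by 1.003 and was called. The call was lost under 8 of 18 alternatives. Meis1, a partner of the posterior Hox proteins, differed by -0.38 and -0.52 on its 2 tested probes, which is under 2-fold. Its brighter probe read 3.00 and 3.04 in ID8G cells and 2.63 and 2.66 in GO2 cells (limma adjusted p = 0.0107). Meis3 differed by 0.63. Pbx2, at 0.14, and Pknox1, at -0.16 by its brighter probe, did not pass the adjusted threshold, and Pbx4 was well above background on no array.

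The Polycomb and trithorax complexes, which keep Hox genes silent or active through histone marks, gave 1 called gene. All 31 Polycomb genes were tested, with a median difference of -0.01, and Cbx7 alone was called, by 1 of 54 probes against 7.84% of all tested probes called in either direction. At an unadjusted p below 0.05, limma gave 14 of the 54 probes higher and 18 lower, against 22.5% and 25.7% of all tested probes. The t-test of the methods gave 22, against 11.9% higher and 12.7% lower of all. Cbx7, a chromobox protein of the canonical Polycomb complex, read -1.47 and -1.34 in ID8G cells and -0.25 and -0.34 in GO2 cells, a difference of 1.11 (SE 0.07, limma adjusted p = 0.00167). The call was lost under 4 of 18 alternatives. Ezh2, the histone methyltransferase of the other main complex, differed by -0.54 by its brightest probe, at 3.45 and 3.38 in ID8G cells and 2.91 and 2.85 in GO2 cells. Its other 4 probes differed by -0.35 to -0.44, all under 2-fold. Both GO2 arrays lay below both ID8G arrays on 5 of 5 probes of this 1 gene, against 39.6% of all tested probes. Of 18 trithorax and histone demethylase genes, 18 were tested and 0 were called by limma, with differences between -0.29 and 0.34. At an unadjusted p below 0.05, limma gave 4 of their 28 probes higher and 6 lower, and the t-test of the methods 4, beside the same shares of all tested probes.

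Among the factors listed as acting upstream of Hox genes, Aldh1a2 was called higher and Rarb and Dhrs3 lower, all genes of the retinoic acid pathway. Of 23 such factors with a probe, 13 were tested and the other 10 tested genes were not called, and the median was 0.07. By probe, 1 of 19 was called higher and 4 lower, against 4.50% and 3.34% of all tested probes. The 4 lower probes belong to Rarb and Dhrs3 alone. A Rarb probe among the 4 was not well above background on every array and was tested because of its signal in ID8G cells alone. Aldh1a2, the enzyme that makes retinoic acid in the embryo, read -2.37 and -2.39 in ID8G cells and -0.29 and -0.09 in GO2 cells, a difference of 2.19 (SE 0.09, limma adjusted p = 0.000502). Rarb, a retinoic acid receptor that is itself a target of the pathway, read 0.56 and 0.42, then -1.79 and -1.64, a difference of -2.20 (SE 0.09). Dhrs3, which turns retinal back to retinol and is also induced by retinoic acid, read 4.11 and 4.06, then 2.35 and 2.34, a difference of -1.74 (SE 0.05). The arrays of the lines were apart for each of the 3 genes. Of other genes of the pathway, Cyp26b1, which breaks down retinoic acid, differed by 0.82 (limma adjusted p = 0.0581), and Rara and Rarg by 0.37 and -0.04 by their brightest probes. The Cdx genes, direct activators of central Hox genes, were not tested, and Cdx1 and Cdx2 were well above background on no array.

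**Figure D5:**
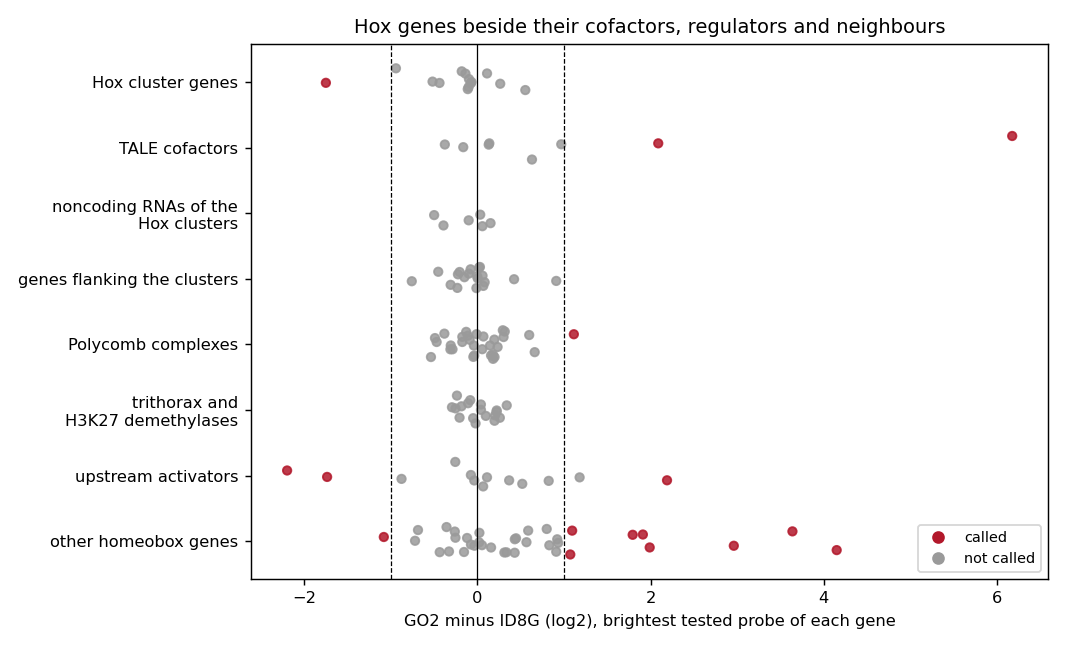
Hox genes beside their cofactors, regulators and neighbors. The horizontal axis is GO2 minus ID8G on the log2 scale by the brightest tested probe of each gene, red points were called, grey points were not, and dashed lines mark 2-fold. The Hox genes hold 1 called point, Hoxa3 at -1.75, while TALE cofactors reach 6.18, the fitted value of Pknox2, which is no bound.

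Markers of cell types were read for the same arrays. Keratins of the ovarian surface epithelium were present, Krt8 at 6.81 and 6.76 in ID8G cells and 6.25 and 6.21 in GO2 cells, while Epcam, Krt7, Cldn4 and Muc1 were well above background on no array. Of 11 epithelial markers 7 were tested, and 2 (by 2 of 7 probes) were called lower, against 3.34% of all tested probes, and 0 higher. Their summed level, in multiples of the 75th percentile, was 544 to 562 in ID8G cells and 284 to 286 in GO2 cells. Such a sum adds the intensities of all tested probes of a list, so the brightest probes weigh most in it. Of 12 ovarian surface and mesothelial markers 10 were tested, Upk3b was called higher, at 1.08, and Amhr2 lower, at -1.09 by its brightest probe, while Wt1 read 5.98 and 6.22 in ID8G cells and 5.99 and 6.01 in GO2 cells. Their summed level was 157 to 165 in ID8G cells and 134 to 137 in GO2 cells. Of 10 fibroblast markers 6 were tested and 5 (by 6 of 7 probes) were called higher, against 4.50% of all tested probes, with a summed level of 70.9 to 73.6 in ID8G cells and 211 to 216 in GO2 cells, while Lum, Fap, Postn and Thy1 were not well above background in either line. Ptprc, the gene of CD45, and Adgre1, Lyz2 and Mrc1 of macrophages were well above background on no array, and of the 4 tested leukocyte markers and the 1 tested endothelial marker 0 were called by limma. Cd14 and Cd68 were among the tested leukocyte markers, well above background on every array by their brighter probes. Cd14 read 0.77 and 0.74 in ID8G cells and 0.06 and 0.07 in GO2 cells. At an unadjusted p below 0.05, limma gave 1 leukocyte probe higher and 2 lower, against 22.5% and 25.7% of all tested probes. The t-test of the methods gave 2 leukocyte probes, against 11.9% higher and 12.7% lower of all, and the endothelial probe passed neither. Of 5 adipocyte markers 2 were tested, and Fabp4 was called lower, by at least 6.28-fold. The part of the markers that were called in the Hox differences was not tested. The arrays lay on 1 slide, with those of a line side by side, so position on the slide and cell line cannot be told apart. Signal well above background was given by 16 and 19 Hox probes in ID8G cells and by 18 and 19 in GO2 cells.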

How the data were processed

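RNA of ID8G and GO2 cells, 2 samples each, was labeled with Cy3 and hybridized to Agilent 1-color arrays. The authors deposited, per spot, the linear intensity that Feature Extraction 11.5.1.1 had corrected for background, with no scaling between arrays, and its marks for outliers and for signal well above background. The authors' log2 values from GeneSpring, which are scaled by array to its 75th percentile with the probe's median taken off, were used for 1 alternative. Symbols came from the RefSeq accessions of the probes through a table for GRCm38.p6, which matched 32994 of 56605 probes (58.3%).

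Here, outlier spots were left out, spots of a probe were averaged, and the 75th percentile of the array was subtracted from the log2 intensity. The 28368 probes with signal well above background on each array of a line were compared between the lines with limma 3.58.1 (R 4.3.3) with no covariate, and p values were adjusted by Benjamini-Hochberg over all of them. A probe was called at an adjusted p below 0.05 and a difference of at least 1 (2-fold), and a gene where at least 1 probe was called. A two-sided exact permutation test of 2 arrays against 2 cannot give a p below 0.333, and the number of arrays limits the precision. The procedure was tested on simulated data for this comparison, where of 28368 probes 200 were given a change. It called 84% of the 100 changed by 2 on the log2 scale, 96% of the 100 changed by 3, and 0 of the unchanged probes. Changes below 2 were not simulated. The largest difference of a tested Hox probe was -1.75, so these rates do not cover the Hox differences.

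Hox genes with a tested probe are named, and from each other list at most the 3 called genes with the largest difference, its defining members, and a few chosen after their values were seen. The Hox genes and all lists were chosen with earlier results of these data known. Alternatives were other background corrections, scalings, filters, variances, tests and thresholds, a replicate block, and each array left out. Some items are not reported here. For normexp, the median signal of each spot was taken.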

Additional observations from a re-analysis of the deposited data

How the results depend on the processing

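The count of Hox probes called lower, 1, stayed at 1 under most alternatives and was always Hoxa3 where it was 1. It was 2 with spike-in scaling (Hoxa3 and Hoxa10), 3 with no filter on dim probes (Hoxa3, Hoxa4 and a Hoxa9 probe well above background on no array), 4 with no minimum fold and 0 with the methods' t-test. Without each array in turn it ranged from 1 to 4, and was 4 without ID8G replicate 1, where Hoxa4 at -2.69, Hoxd10 at -3.57 and Hoxa10 at -1.002 joined Hoxa3. In such a fit the lone array is assumed to vary like the other line. The count of Hox probes called higher, 0, was 3 with no minimum fold and 0 under the other settings. The difference of Hoxa3 ranged from -1.96 with spike-in scaling to -1.18 with normexp. With the replicate number as a block, 1 Hox probe was lower and 0 were higher, and the adjusted p of Hoxa3 was 0.00494 by limma. With no minimum fold the block left 2 Hox probes higher and 3 lower, in place of 3 and 4, since a Hoxd8 probe (adjusted p = 0.0664) and a Hoxa10 probe (0.0699) no longer passed. A replicate number does not pair the arrays: the deviations of arrays that share a number correlated at 0.0273 across tested probes.

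The sign of Hoxc13 turned without ID8G replicate 2 (0.47) and without GO2 replicate 1 (0.13), and its difference lay between -0.83 and 0.47 over the 4 arrays left out in turn. That of Hoxd3 turned without GO2 replicate 2, at 0.11, and was -0.25 without GO2 replicate 1, and that of Hoxd4 with spike-in scaling, to -0.10. In none of these was the probe called. Of the other single Hox values, 292 kept their sign and their side of the threshold, 8 newly passed it and 1 no longer passed it.

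Over all tested probes, 1277 were higher and 947 lower. These counts were 818 and 517 with normexp, 666 and 606 where all 4 arrays had to be well above background, 748 and 440 with limma treat, 4835 and 5348 with no minimum fold, 0 and 3 with the methods' t-test, and 1102 and 1434 with spike-in scaling. The last lowered the share of higher probes among those called from 57.4% to 43.5%. The causes were not tested, except that a stricter filter, treat and the threshold change the counts by construction. Signal over background is a further limit, since 25 of 39 Hox genes could not be tested.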

Other observations

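Homeobox genes outside the Hox clusters included several that were higher in GO2 cells. Of 77 such genes 36 were tested, 9 were called higher and 2 lower by limma, and the median difference was 0.38. Of their 49 tested probes, 11 were called higher and 2 lower, against 4.50% and 3.34% of all tested probes. Probes of Dlx5, Lhx1, Meox1, Msx1, Prrx1 and Prrx2 among those higher, and of Isl1 among those lower, were not well above background on every array. Those among the higher were tested because of their signal in GO2 cells alone, and that of Isl1 because of its signal in ID8G cells alone. For all of these probes the counts say little beyond the filter. Prrx1, a mesenchymal homeobox gene, read -2.18 and -1.95 in ID8G cells and 2.16 and 2.01 in GO2 cells, a difference of 4.15 (SE 0.11, limma adjusted p = 0.000269). Meox1, known from the somites, was at least 2.52-fold higher, and Msx1, a target of BMP signaling, at least 6.41-fold, both with ID8G cells not well above background. Prrx2, chosen after its values were seen, was at least 12.0-fold higher by a probe that read -5.85 and -6.06, then -0.07 and -0.10, while its other probe differed by 0.43 and was not called. The list also holds the Cdx and Evx genes, which other lists share, and how its genes relate to the fibroblast markers that were higher in GO2 cells was not tested.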
